A study of Mus musculus with 2 samples.

Results

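The CD200 receptor family of the mouse was followed through single γδ T cells of the colon. Its members were the 4 genes Cd200r1, Cd200r2, Cd200r3 and Cd200r4, taken as the rows of those names among the 32285 genes of the deposited count matrices, and all 4 had at least 1 count in both libraries. They were chosen because of how they differed between the libraries and with Cd8a, so their values are a description and were not tested. One library came from colon tumor (TIL, for tumor-infiltrating lymphocytes) and the other from normal colon tissue (IEL, for intraepithelial lymphocytes), and both are labelled as γδ T cells from C57BL/6J mice, 18-20 weeks old, with no allele or agent named for either. Droplet sequencing of transcript 3′ ends gave counts of unique molecular identifiers (UMIs, each 1 captured RNA molecule), and levels are given as UMIs of a gene per 1000000 UMIs (CPM). The extraction protocol given for both libraries names tumor tissue alone, so how the normal colon was handled is not given in the sources used here. How many mice were pooled, how the tumors arose and whether cells were sorted are not given there either. With 1 library per group there is no replicate check and no test of any difference between groups, and the 95% intervals cover counting error only.

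CD200 receptors belong to the immunoglobulin superfamily and sit on the surface of myeloid cells and of some lymphocytes. The founding member, CD200R1, binds CD200 on neighbouring cells and inhibits the cell that carries it. Its cytoplasmic tail recruits the adaptors Dok2 and Dok1, and through the Ras GTPase-activating protein RasGAP it restrains Ras signalling. The mouse relatives CD200R2, CD200R3 and CD200R4 have short tails and pair with the adaptor DAP12, the product of Tyrobp, which carries an activating motif; whether they bind CD200 itself has been disputed. CD8α, the product of Cd8a, forms homodimers on many intraepithelial lymphocytes of the gut, whereas CD8β, the product of Cd8b1, marks conventional CD8 T cells.

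The 4 genes lie side by side on the plus strand of chromosome 16 (GRCm38, GENCODE M21), in the order Cd200r1 at chr16:44765736-44794978, Cd200r4 at chr16:44811733-44839150, Cd200r2 at chr16:44867097-44915840 and Cd200r3 at chr16:44943678-44981380. The whole group spans 215645 bases, with 16754, 27946 and 27837 bases between neighbours, and all 4 are protein-coding genes. The ligand gene Cd200 lies on the minus strand of the same chromosome, at chr16:45382135-45409053. The members are near copies of each other in places, since the longest identical run between annotated transcripts was 110 bases for Cd200r2 with Cd200r4 and 88 bases for Cd200r1 with Cd200r4. Within the last 500 bases of the transcripts, where 3′ tags mostly fall, no pair shared a run longer than 21 bases. How the authors' counting treated reads that fit more than 1 member is not given in the sources used here.

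Promoter windows of 300 bases, from 250 before to 50 after the RefSeq transcript start (GRCm38.p6), were at hand for 3 of the 4 members. Those of Cd200r2 and Cd200r4 are shown because the levels of these genes lay close across clusters, and that of Cd200r3, a scarce gene here, because it shares long runs with Cd200r4. The windows were chr16:44820478-44820777 for Cd200r4, which lies inside the GENCODE gene span and belongs to a later start, chr16:44866847-44867146 for Cd200r2 and chr16:44943428-44943727 for Cd200r3, all on the plus strand and written 5′ to 3′. Capitals in Cd200r4 and Cd200r3 mark runs of at least 12 bases that both windows share, and capitals in Cd200r2 mark the motif letters named after the sequences.

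Cd200r4: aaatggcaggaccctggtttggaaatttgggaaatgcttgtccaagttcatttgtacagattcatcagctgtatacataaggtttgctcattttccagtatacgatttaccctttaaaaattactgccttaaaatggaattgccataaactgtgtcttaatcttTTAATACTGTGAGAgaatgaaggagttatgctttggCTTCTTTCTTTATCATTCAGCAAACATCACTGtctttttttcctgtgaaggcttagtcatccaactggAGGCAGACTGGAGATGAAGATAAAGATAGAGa
Cd200r2: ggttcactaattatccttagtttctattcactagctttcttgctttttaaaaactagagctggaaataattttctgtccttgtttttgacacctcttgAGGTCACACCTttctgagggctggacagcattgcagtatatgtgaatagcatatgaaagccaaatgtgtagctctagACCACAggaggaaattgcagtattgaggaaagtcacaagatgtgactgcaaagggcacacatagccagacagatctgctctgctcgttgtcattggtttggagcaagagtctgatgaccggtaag
Cd200r3: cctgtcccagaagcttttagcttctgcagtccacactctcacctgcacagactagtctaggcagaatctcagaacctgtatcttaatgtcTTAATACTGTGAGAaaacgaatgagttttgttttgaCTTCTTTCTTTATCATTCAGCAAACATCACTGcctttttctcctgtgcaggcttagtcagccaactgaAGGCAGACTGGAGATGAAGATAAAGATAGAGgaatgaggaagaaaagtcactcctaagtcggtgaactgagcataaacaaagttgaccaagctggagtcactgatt

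The windows of Cd200r3 and Cd200r4 were 89.7% identical over 156 aligned columns, with a longest shared run of 32 bases and 77 capital letters each. The window of Cd200r2 shared no run longer than 9 bases with either. Of 4 motifs searched on both strands, Cd200r2 held 1 T-box motif (TCACACCT), which 1.28% of all 32851 promoter windows held, 1 nuclear receptor motif (AGGTCA, 16.3%), which overlaps the T-box letters, and 1 RUNX motif (TGTGGT, 16.8%), read on the other strand. Neither Cd200r3 nor Cd200r4 held any of these 3 motifs, and the AP-1 motif (TGACTCA, 5.20%) was in none of the 3 windows.

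Cells were clustered together without the 4 members, Cd200, Cd8a or Cd8b1 among the genes used, and levels are given over T-like cells, that is, cells of clusters with 5 or 6 of the 6 general T cell markers at 50 CPM and not named for another cell type, without the cluster of high doublet scores (number 12). There were 11791 such cells in TIL and 9080 in IEL, with a median of 6386 UMIs per cell in TIL and 6854 in IEL. A UMI of Trdc, the γδ receptor constant gene, was seen in 98.8% of TIL and 96.8% of IEL T-like cells, but a UMI of Trac, the αβ constant gene, was also seen in 37.5% of TIL and 77.7% of IEL cells, so the γδ label was met for Trdc and not for the absence of Trac. Cells with a γδ constant transcript and no Trac were 62.3% of TIL and 22.1% of IEL T-like cells, and member values in those cells are given beside the comparisons by library and by Cd8a. The libraries shared 33 cell barcodes. At least 1 Cd8a UMI was found in 872 TIL cells (7.40%) and in 6915 IEL cells (76.2%), which left 10919 TIL and 2165 IEL cells with none.

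All 4 receptor genes were lower in TIL than in IEL cells, and among the 3 that reached 20 CPM the margin was widest for Cd200r2. Cd200r1, the inhibitory member, had 1006 UMIs or 11.6 CPM in TIL cells (95% interval 10.9 to 12.4), against 5880 UMIs or 86.2 CPM in IEL cells (84.0 to 88.4), a log2 ratio of -2.89 (-2.99 to -2.79). Cd200r2, a DAP12-pairing member, had 743 UMIs or 8.60 CPM in TIL cells (7.99 to 9.24), against 15043 UMIs or 220.4 CPM in IEL cells (217 to 224), a log2 ratio of -4.68 (-4.79 to -4.57). Cd200r4, another DAP12-pairing member, had 1234 UMIs or 14.3 CPM in TIL cells (13.5 to 15.1), against 12221 UMIs or 179 CPM in IEL cells (176 to 182), a log2 ratio of -3.65 (-3.73 to -3.56). In none of these 3 did the counting intervals of the libraries overlap. The share of all genes without such overlap is not given here, so nothing is read from this. Cd200r3, which in mice is known from basophils and mast cells, was close to absent, with 13 UMIs or 0.150 CPM in TIL cells (0.0801 to 0.257), against 169 UMIs or 2.48 CPM in IEL cells (2.12 to 2.88), a log2 ratio of -4.04 (-4.98 to -3.23) whose interval covers that of Cd200r2.

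Genes are called apart here when they reached 20 CPM in either group and differed at least 2-fold with an interval of the ratio excluding 1, which 3 of the 4 members met on the lower side, beside 13.8% of the 6331 genes measured. Cd200r3 stayed under 20 CPM. Since the members were picked from this comparison, nothing is read from that count. UMI counts of 3′ ends are not scaled by transcript length, and no order between genes is drawn from them.

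The difference lay in how many cells had a transcript as well as in how many UMIs they held. Before thinning, Cd200r1 was detected in 6.57% of TIL and 40.0% of IEL cells, Cd200r2 in 3.28% of TIL and 56.1% of IEL cells, and Cd200r4 in 5.50% of TIL and 59.9% of IEL cells. After each cell was thinned to 2000 UMIs, which left out 80 TIL and 73 IEL cells as too shallow, the shares were 2.24% of TIL and 15.2% of IEL cells for Cd200r1, 1.69% of TIL and 30.5% of IEL cells for Cd200r2, and 2.46% of TIL and 26.7% of IEL cells for Cd200r4. At least 3 UMIs of Cd200r2 were present in 0.780% of TIL and 26.0% of IEL cells, and the most in a single cell was 11 UMIs in TIL and 19 in IEL. For Cd200r4 these values were 1.12% of TIL and 18.8% of IEL cells, with at most 12 UMIs in TIL and 19 in IEL. Cd200r3 gave a single UMI in 11 of its 12 positive TIL cells and in 153 of its 160 positive IEL cells. In the cells with a γδ constant transcript and no Trac, Cd200r1 had 9.40 CPM in TIL against 69.2 CPM in IEL, Cd200r2 had 4.30 CPM in TIL against 125 CPM in IEL, and Cd200r4 had 8.56 CPM in TIL against 122 CPM in IEL, so the direction was the same there.

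Transcripts of stress and dissociation moved with the same comparison: Hspa1a, a heat shock gene, had 15.4 CPM in TIL cells against 771 CPM in IEL cells, and Fos, an immediate early gene, had 170 CPM in TIL cells against 2164 CPM in IEL cells. Their part in the result was not tested.

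Free RNA sets a background in droplet data, which was not measured apart here. The low values below come from cells taken because they had little of the receptors, so they give no upper bound for it. No such value is given for Cd200r1 or Cd200r4 in TIL. In TIL, 1 of 265 macrophage- or monocyte-like cells (0.377%, median 6952 UMIs) had a Cd200r2 UMI, or 0.396 CPM. In IEL, 1 of 52 cells of cluster 3 (1.92%, median 6120.5 UMIs) had a Cd200r2 UMI, 2 had a Cd200r4 UMI and 3 a Cd200r1 UMI. The 28 epithelial-like droplets of IEL were higher, as 39.3% held Cd200r2, 64.3% Cd8a and 82.1% Trdc UMIs. The source of these UMIs was not tested. Among IEL clusters with at least 50 cells, cluster 3 was the lowest in Cd200r2, at 3.16 CPM beside 220.4 CPM over all IEL T-like cells.

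**Figure D1:**
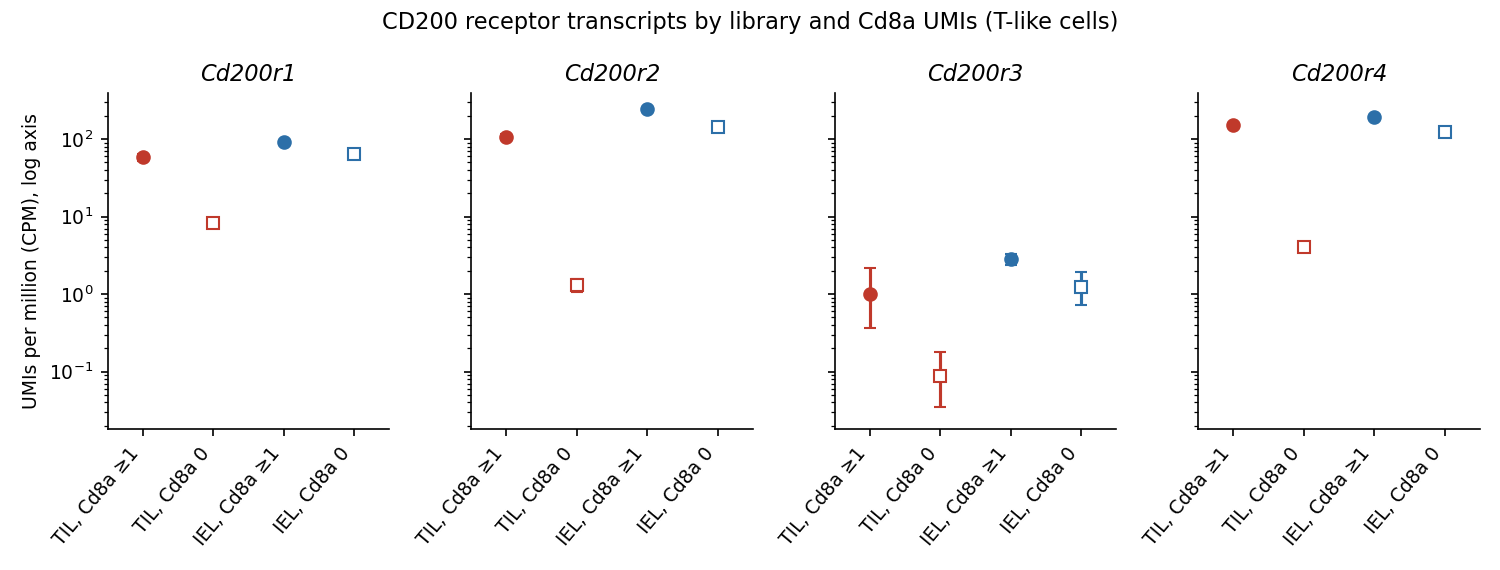
Level of each CD200 receptor gene in CPM (log axis) in TIL and IEL T-like cells with at least 1 Cd8a UMI (filled circles) or with 0 (open squares); bars are exact 95% Poisson intervals of the counts and are often smaller than the symbol. TIL cells without Cd8a sit at 8.21, 1.31 and 4.07 CPM for Cd200r1, Cd200r2 and Cd200r4, below the other 3 groups of cells.

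Split by Cd8a, TIL cells with a Cd8a UMI had far more of Cd200r1, Cd200r2 and Cd200r4 than TIL cells without one. Cd200r1 was at 57.9 CPM (51.9 to 64.3) in Cd8a-positive TIL cells and 8.21 CPM (7.59 to 8.86) in TIL cells with 0, a log2 ratio of 2.82 (2.63 to 3.01). Cd200r2 was at 107 CPM (98.6 to 115) in Cd8a-positive TIL cells and 1.31 CPM (1.07 to 1.58) in TIL cells with 0, a log2 ratio of 6.35 (6.05 to 6.66). Cd200r4 was at 152 CPM (142 to 162) in Cd8a-positive TIL cells and 4.07 CPM (3.64 to 4.53) in TIL cells with 0, a log2 ratio of 5.22 (5.04 to 5.41). The 872 Cd8a-positive cells thus held 638 of the 743 Cd200r2 UMIs and 907 of the 1234 Cd200r4 UMIs, but 346 of the 1006 Cd200r1 UMIs. Cd200r3 had 6 UMIs in Cd8a-positive TIL cells and 7 in those with 0. In the cells with a γδ constant transcript and no Trac the gaps were narrower: Cd200r1 had 41.6 CPM in 314 Cd8a-positive TIL cells and 8.10 CPM in 7030 TIL cells with 0 (log2 ratio 2.36), Cd200r2 had 73.9 CPM in Cd8a-positive and 1.48 CPM in the other TIL cells (5.64), and Cd200r4 had 106 CPM in Cd8a-positive and 4.62 CPM in the other TIL cells (4.52). By the same rule 3 of the 4 members were apart on the higher side, beside 6.4% of the 5895 genes measured, and none on the lower side, where 6.75% were. Other transcripts moved with the same split: Trac was at 227 CPM in Cd8a-positive TIL cells and 92.8 CPM in TIL cells with 0, Trdc at 1693 CPM in Cd8a-positive and 4117 CPM in the other TIL cells, and Hspa1a at 60.4 CPM in Cd8a-positive and 12.1 CPM in the other TIL cells. Their part in the result was not tested.

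In IEL the same split gave smaller differences in the same direction. Cd200r1 was at 92.2 CPM (89.6 to 94.8) in Cd8a-positive IEL cells and 64.1 CPM (60.1 to 68.4) in IEL cells with 0, a log2 ratio of 0.52 (0.42 to 0.63). Cd200r2 was at 242 CPM (238 to 246) in Cd8a-positive IEL cells and 142 CPM (136 to 149) in IEL cells with 0, a log2 ratio of 0.76 (0.70 to 0.83). Cd200r4 was at 194 CPM (190 to 198) in Cd8a-positive IEL cells and 124 CPM (118 to 130) in IEL cells with 0, a log2 ratio of 0.65 (0.58 to 0.72). None of these reached 2-fold, so 0 of the 4 members were apart, beside 0.623% of the 5937 genes measured on the higher and 0.674% on the lower side. Cd200r3 had 151 UMIs or 2.81 CPM in Cd8a-positive IEL cells and 18 UMIs or 1.23 CPM in IEL cells with 0. In IEL cells with a γδ constant transcript and no Trac, the log2 ratio by Cd8a was 0.61 for Cd200r1, 0.81 for Cd200r2 and 0.57 for Cd200r4, and Cd200r3 had 14 UMIs in Cd8a-positive cells and 1 UMI in cells with 0. Trac was at 365 CPM in Cd8a-positive and 177 CPM in the other IEL T-like cells, and its part in the result was not tested.

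Set against each other across the libraries, cells without Cd8a differed most. Among cells with 0 Cd8a UMIs the TIL over IEL log2 ratio was -2.97 for Cd200r1, -6.77 for Cd200r2 and -4.93 for Cd200r4, and these 3 members were apart on the lower side, beside 14.0% of the 6301 genes measured. Among Cd8a-positive cells it was -0.67 (-0.83 to -0.51) for Cd200r1, -1.18 (-1.30 to -1.06) for Cd200r2 and -0.36 (-0.46 to -0.26) for Cd200r4, and 1 member, Cd200r2, was apart on the lower side, beside 4.79% of 6163 genes, and none on the higher side, where 4.27% were. For all 4 genes Cd8a-positive IEL cells were highest and TIL cells without Cd8a lowest, but the order between was not the same for each gene. For Cd200r1, Cd8a-positive TIL cells (51.9 to 64.3 CPM) and IEL cells without Cd8a (60.1 to 68.4 CPM) had overlapping intervals, and so they had for Cd200r3 (0.368 to 2.18 CPM in Cd8a-positive TIL cells, 0.731 to 1.95 CPM in IEL cells without Cd8a). For Cd200r2, Cd8a-positive TIL cells at 107 CPM stood below IEL cells without Cd8a at 142 CPM. For Cd200r4, Cd8a-positive TIL cells at 152 CPM stood above IEL cells without Cd8a at 124 CPM.

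A UMI of Cd8a is easier to find in a deeper cell, so depth was held within bands. Among cells of at least 4000 and under 8000 UMIs, Cd200r2 was at 135 CPM in 601 Cd8a-positive TIL cells and 1.71 CPM in 6724 TIL cells with 0, and at 222 CPM in 4549 Cd8a-positive IEL cells and 128 CPM in 1573 IEL cells with 0. The direction of Cd200r1, Cd200r2 and Cd200r4 was the same in both libraries within this band, under 4000 and at 8000 or more UMIs. Among TIL cells of at least 8000 UMIs the Cd8a-positive levels were lower than in shallower cells, at 36.7 CPM for Cd200r1, 53.5 CPM for Cd200r2 and 104 CPM for Cd200r4.

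**Figure D2:**
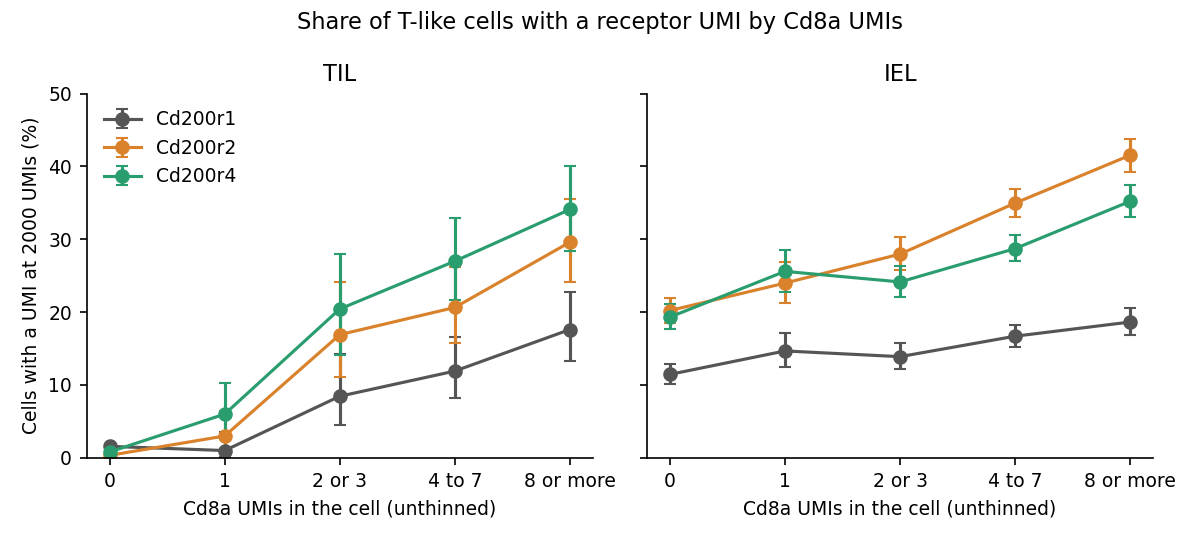
Share of T-like cells with a UMI of Cd200r1, Cd200r2 or Cd200r4 after thinning each cell to 2000 UMIs (y, percent), by the number of Cd8a UMIs in the unthinned cell (x), in TIL (left) and IEL (right); bars are exact 95% Clopper-Pearson intervals. In TIL the share with Cd200r2 was 0.341% at 0 and 29.6% at 8 or more Cd8a UMIs, and in IEL 20.2% at 0 and 41.5% at 8 or more.

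Over all T-like cells of a library, receptor levels rose with the number of Cd8a UMIs. These steps pool clusters that differ in both Cd8a and the receptors, and no such steps were computed within a cluster. In TIL cells with 0, 1, 2 or 3, 4 to 7 and 8 or more Cd8a UMIs, Cd200r2 was at 1.31, 9.84, 67.5, 113 and 196 CPM. Cd200r4 was at 4.07, 29.5, 129, 166 and 246 CPM over the same steps, and Cd200r1 at 8.21, 14.4, 47.2, 57.9 and 97.1 CPM. Each step was above the one before it, although between 2 or 3 and 4 to 7 Cd8a UMIs the intervals overlapped for Cd200r1 (34.0 to 63.8 CPM at 2 or 3, 46.8 to 70.8 CPM at 4 to 7) and Cd200r4 (107 to 155 CPM at 2 or 3, 147 to 187 CPM at 4 to 7). In IEL cells the steps were shallower and began higher, with Cd200r2 at 142, 161, 193, 246 and 296 CPM, Cd200r4 at 124, 148, 156, 192 and 236 CPM, and Cd200r1 at 64.1, 73.0, 78.2, 95.1 and 104 CPM. The IEL intervals overlapped between 1 and 2 or 3 Cd8a UMIs for Cd200r4 (139 to 158 CPM at 1, 148 to 163 CPM at 2 or 3) and Cd200r1 (66.5 to 79.9 CPM at 1, 73.0 to 83.7 CPM at 2 or 3), and for Cd200r1 also between 0 (60.1 to 68.4 CPM) and 1. At 8 or more Cd8a UMIs, Cd200r4 had overlapping intervals in TIL (225 to 269 CPM) and IEL (229 to 243 CPM), and so had Cd200r1 (83.7 to 112 CPM in TIL, 99.8 to 109 CPM in IEL), while Cd200r2 remained lower in TIL (177 to 217 CPM) than in IEL (288 to 305 CPM).

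In TIL the other CD8 chain did not carry the pattern. Among Cd8a-positive TIL cells, 37 also had Cd8b1 and 835 did not, and Cd200r2 was at 7.83 CPM (2 UMIs) in those with Cd8b1 and 111 CPM in those without. Cd200r4 was at 39.1 CPM (18.8 to 72.0) in the 37 cells and 157 CPM (147 to 167) in the 835. The 106 TIL cells with Cd8b1 and no Cd8a had 0 UMIs of Cd200r2, 2 of Cd200r4 and 1 of Cd200r1. In IEL, Cd200r2 was at 162 CPM in 578 cells with both chains and 249 CPM in 6337 with Cd8a alone. Cd200r4 was at 141 CPM in those with both chains and 199 CPM with Cd8a alone. Cd200r1 was at 93.9 CPM in cells with both chains and 92.0 CPM in those with Cd8a alone, with overlapping intervals. The 23 IEL cells with Cd8b1 and no Cd8a had Cd200r2 at 194 CPM (131 to 277) and Cd200r4 at 116 CPM (69.0 to 184). These intervals overlapped those of IEL cells with neither chain, at 142 CPM (136 to 148) for Cd200r2 and 124 CPM (118 to 130) for Cd200r4.

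**Figure D3:**
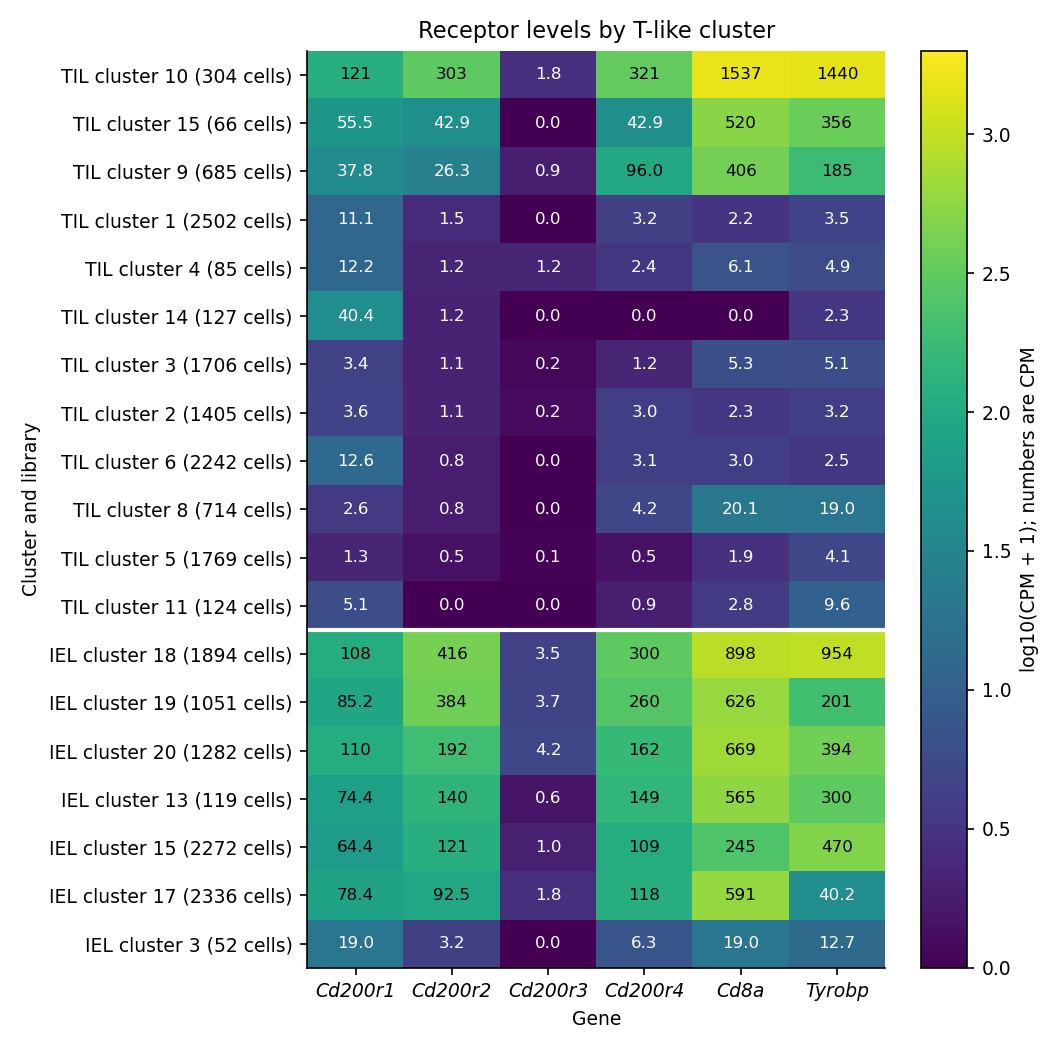
Levels of the 4 receptor genes, Cd8a and Tyrobp in CPM (numbers; colour is log10 of CPM + 1) in each T-like cluster with at least 50 cells, TIL above the white line and IEL below it, ordered within each library by Cd200r2. TIL cluster 10 stands out among TIL clusters with 303 CPM of Cd200r2, and IEL clusters 18 and 19 lead in IEL with 416 and 384 CPM.

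Clusters showed where in each library the receptors were. A single TIL cluster, number 10, held 2.58% of TIL T-like cells but 67.7% of their Cd200r2 UMIs, 43.1% of Cd200r4 UMIs and 20.0% of Cd200r1 UMIs. Its 304 cells had Bcl2l15, Cela1, Itgad and Tyrobp among their 10 leading genes, and were Cd8a-positive in 99.0%. Cd200r2 was at 303 CPM (277 to 331), Cd200r4 at 321 CPM (294 to 349) and Cd200r1 at 121 CPM (105 to 139) in these cells, and 73.7% of them had a Cd200r2 UMI before thinning. Cluster 9, of 685 TIL cells led by Gzmc and Tmem158, of which 46.3% were Cd8a-positive, had Cd200r2 at 26.3 CPM, Cd200r4 at 96.0 CPM and Cd200r1 at 37.8 CPM, and held 35.8% of the Cd200r4 UMIs. The small TIL share of cluster 15, 66 cells in a cluster mostly of IEL cells, had 42.9 CPM of both Cd200r2 and Cd200r4 and 55.5 CPM of Cd200r1. No cluster of TIL cells other than these 3 reached 5 CPM of Cd200r2 among T-like clusters with at least 50 cells, cluster 12 left out. With coarser clusters (Leiden resolution 0.5 in place of 1.0), the highest TIL cluster had 98.7 CPM of Cd200r2.

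Most TIL cells were IL-17-like by their markers, and they had little of the DAP12-pairing receptors. Over the 9751 cells of the 6 IL-17-like TIL clusters, numbers 1, 2, 3, 5, 6 and 14, Cd200r2 was at 0.982 CPM, Cd200r4 at 2.23 CPM and Tyrobp at 3.57 CPM, while Cd200r1 was at 7.65 CPM (7.02 to 8.31). The Cd200r2 level, from 71 UMIs (0.767 to 1.24 CPM), lay within the counting interval of the macrophage- or monocyte-like cells (0.396 CPM, 0.0100 to 2.21). That interval rests on 1 UMI, and a level above that of those cells was not detectable here. Cd200r1 varied among these clusters, from 1.29 CPM in cluster 5, led by Il17f and Batf3, to 11.1 CPM in cluster 1 and 12.6 CPM in cluster 6. Cluster 14 stood above the others, with 35 UMIs or 40.4 CPM of Cd200r1 (28.1 to 56.2) in 127 cells. Those cells had no Cd8a and no Cd200r4 UMI and 1 of Cd200r2, and were led by Tnf, Rccd1, Crispld2 and Tnfsf14. The recirculating-like cluster 8, of 714 TIL cells with all 5 of its markers, had 2.60 CPM of Cd200r1.

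In IEL every cluster with at least 50 cells except number 3 had all of Cd200r1, Cd200r2 and Cd200r4 above 60 CPM. Cluster 18, of 1894 cells led by 6330403K07Rik and Rasgrf1 and with Klre1 and Tyrobp among its leading genes, had Cd200r2 at 416 CPM (406 to 426), Cd200r4 at 300 CPM (292 to 309) and Cd200r1 at 108 CPM (103 to 113). Cluster 19, of 1051 cells led by Scin and Ccl4, had Cd200r2 at 384 CPM (371 to 398), Cd200r4 at 260 CPM (249 to 271) and Cd200r1 at 85.2 CPM (78.9 to 92.0). Cluster 20, of 1282 cells led by heat shock genes, had 192 CPM of Cd200r2, and cluster 15, of 2272 cells led by Klra7 with Tcf7 among its leading genes, had 121 CPM. Cluster 17, of 2336 cells led by Scin and Themis, was lowest of the 5 large IEL clusters in Cd200r2, at 92.5 CPM (87.8 to 97.4). Over these 5 clusters Cd200r1 varied less than Cd200r2 and Cd200r4, between 64.4 CPM in cluster 15 and 110 CPM in cluster 20, and its intervals overlapped between clusters 18 and 20. TIL cluster 10 had less Cd200r2 than IEL clusters 18 and 19 and more than each other IEL cluster of at least 50 cells, while its Cd200r4 and Cd200r1 intervals overlapped those of IEL cluster 18. Since nearly all clusters came from 1 library, a cluster and its library cannot be told apart.

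Within clusters the link with Cd8a was uneven. Clusters were split where at least 50 cells had a Cd8a UMI and at least 50 had none, which in TIL only cluster 9 met. Cluster 10, with 67.7% of the Cd200r2 UMIs of TIL T-like cells, was Cd8a-positive in 99.0% and was not split. In TIL cluster 9, Cd200r2 was at 39.8 CPM in 317 Cd8a-positive cells and 14.0 CPM in 368 cells with 0, a log2 ratio of 1.50 (0.91 to 2.12), and Cd200r4 at 131 CPM in Cd8a-positive cells and 64.5 CPM in cells with 0, a log2 ratio of 1.02 (0.73 to 1.31). In IEL cluster 15 the log2 ratio was 0.78 (0.65 to 0.91) for Cd200r2 and 0.54 (0.41 to 0.68) for Cd200r4. In IEL clusters 17 and 19 Cd200r2 was lower in Cd8a-positive cells, with log2 ratios of -0.25 (-0.46 to -0.03) in cluster 17 and -0.31 (-0.44 to -0.19) in cluster 19. In IEL cluster 18 it was 0.34 (0.13 to 0.56) and in IEL cluster 20 it was 0.37 (0.12 to 0.62). For Cd200r4 the log2 ratio was -0.07 (-0.27 to 0.13) in IEL cluster 17, 0.02 (-0.20 to 0.25) in cluster 18 and -0.15 (-0.30 to 0.01) in cluster 19. In IEL cluster 20 it was 0.39 (0.12 to 0.68). For Cd200r1 it was 0.38 (-0.07 to 0.83) in TIL cluster 9, and in IEL it ran from -0.02 in cluster 19 to 0.65 in cluster 20. Sampling can leave a cell without a Cd8a UMI although it expresses the gene, so cells with 0 are not all Cd8a-negative cells.

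**Figure D4:**
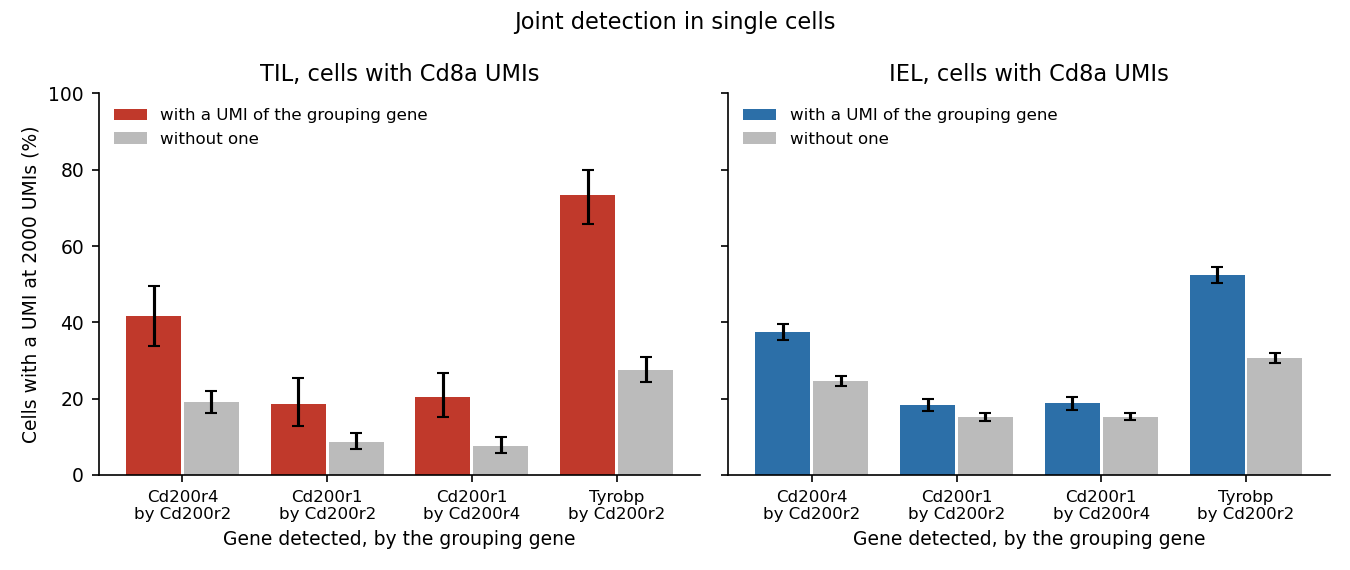
Share of Cd8a-positive T-like cells with a UMI of the first-named gene after thinning to 2000 UMIs (y, percent), among cells with (coloured) and without (grey) a UMI of the grouping gene, in TIL (left) and IEL (right); bars are exact 95% Clopper-Pearson intervals. Cd200r4 was found in 41.6% of TIL cells with Cd200r2 and 19.0% of those without, and Tyrobp in 73.3% of TIL cells with Cd200r2 and 27.6% of those without.

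Cells with Cd200r2 more often had Cd200r4 than cells without it in both libraries, while Cd200r3 was too scarce for such shares. These shares pool clusters that differ in both genes, and none were computed within a cluster. Among all TIL T-like cells thinned to 2000 UMIs, Cd200r4 was detected in 35.4% (28.7 to 42.4) of cells with Cd200r2 and 1.89% of cells without, and in IEL in 36.3% (34.5 to 38.1) of cells with Cd200r2 and 22.5% of cells without. Among Cd8a-positive cells Cd200r4 was detected in 41.6% of TIL cells with Cd200r2 and 19.0% of those without, and in 37.5% of IEL cells with Cd200r2 and 24.7% of those without. Cd200r1 was detected in 18.6% (12.9 to 25.5) of Cd8a-positive TIL cells with Cd200r2 and 8.71% (6.73 to 11.1) of those without, and in 18.3% (16.8 to 20.0) of Cd8a-positive IEL cells with Cd200r2 and 15.3% (14.2 to 16.3) of those without. Among IEL cells with 0 Cd8a UMIs Cd200r1 was found in 11.9% (8.98 to 15.3) of cells with Cd200r2 and 11.3% (9.87 to 12.9) of those without, which overlap. The same shares among TIL cells with 0 Cd8a UMIs also overlapped, at 5.41% (0.661 to 18.2) of 37 cells with Cd200r2 and 1.56% (1.34 to 1.81) of those without. Tyrobp was found in 73.3% of Cd8a-positive TIL cells with Cd200r2 and 27.6% of those without, and in 52.4% of Cd8a-positive IEL cells with Cd200r2 and 30.6% of those without. Before thinning, no member was detected in 40.0% of Cd8a-positive and 92.7% of the other TIL cells, and in 14.5% of Cd8a-positive and 32.7% of the other IEL cells. All 4 members were seen together in 1 TIL and 61 IEL cells.

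Of the 29 Cd200r3 UMIs of all filtered TIL cells, 13 were in T-like cells. Among the filtered TIL cells, 10 had at least 3 UMIs of mast cell or basophil markers (a list with Cpa3, Mcpt8 and Fcer1a), and these held 14 of the 29, in 4 cells, or 142 CPM (77.5 to 238). The other 12397 filtered TIL cells held 15, or 0.161 CPM. The same 10 cells held 13 UMIs of Cd200r4 in 3 cells, or 132 CPM (70.1 to 225), beside 15.1 CPM in the other filtered TIL cells, 5 UMIs of Cd200r2 in 1 cell, and none of Cd200r1. No IEL cell met this count of markers, so the 170 Cd200r3 UMIs of the filtered IEL cells lay in cells without them, and among IEL clusters Cd200r3 was between 0.975 CPM in cluster 15 and 4.21 CPM in cluster 20 for the 5 large ones. Over T-like cells, the 10 mast cell and basophil markers summed to 2.05 CPM in TIL, with Ms4a2 and Prss34 at 0, and to 0.542 CPM in IEL, with 7 of the 10 at 0. The 11 macrophage and monocyte markers summed to 29.2 CPM in TIL against 3.43 CPM in IEL T-like cells. Within TIL they summed to 29.1 CPM in Cd8a-positive cells and 29.3 CPM in cells with 0. Other lists did move with Cd8a in TIL. The 7 epithelial markers summed to 82.3 CPM in Cd8a-positive cells, with Krt20 at 0, and 14.3 CPM in cells with 0. The 6 NK or ILC markers summed to 212 CPM in Cd8a-positive cells, with Ncr1 at 0, and 69.6 CPM in cells with 0. In Cd8a-positive TIL cells 2 of the 7 epithelial and 3 of the 6 NK or ILC markers reached 20 CPM. Cdh1 of the epithelial list and Kit of the NK or ILC list were among the 10 leading genes of the T-like cluster 9. The 7 neutrophil markers summed to 64.6 CPM in Cd8a-positive TIL cells, with Cxcr2 and Ly6g at 0, and 46.2 CPM in cells with 0, and the 4 endothelial markers to 22.1 CPM in Cd8a-positive TIL cells, with Kdr and Vwf at 0, and 56.4 CPM in cells with 0. The part of these transcripts in the results was not tested.

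**Figure D5:**
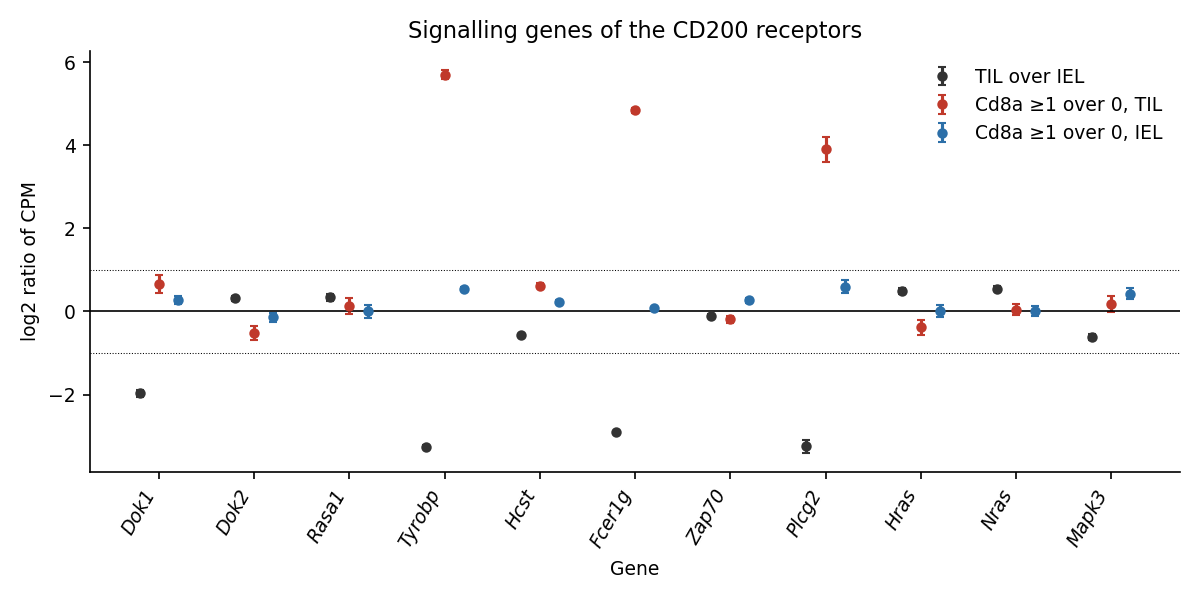
Log2 ratios of CPM (y) for the signalling genes named in the text that reached 20 CPM, for TIL over IEL (black) and for cells with at least 1 Cd8a UMI over cells with 0 in TIL (red) and in IEL (blue); bars are exact 95% intervals and dotted lines mark 2-fold. Tyrobp, Fcer1g and Plcg2 lie at -3.26, -2.90 and -3.24 for TIL over IEL and at 5.70, 4.84 and 3.90 for Cd8a in TIL, and the other genes shown except Dok1 stay within 2-fold.

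The genes around the receptors were read from a list of 21, of which 18 reached 20 CPM. For TIL over IEL, 0 of the 18 were apart on the higher side, where 11.1% of all genes were, and 4 on the lower side, where 13.8% were, with a median log2 ratio of -0.07 beside -0.10 over all genes. On the inhibitory side, Dok1 had 21.8 CPM in TIL cells against 85.6 CPM in IEL cells (log2 ratio -1.97), while Dok2, the main adaptor of CD200R1, had 72.5 CPM in TIL cells against 58.1 CPM in IEL cells (log2 ratio 0.32). Rasa1, which encodes RasGAP, had a log2 ratio of 0.34, and Hras, Nras and Mapk3 lay between -0.61 and 0.55. On the activating side, Tyrobp had 44.8 CPM in TIL cells against 429.9 CPM in IEL cells (log2 ratio -3.26), and Fcer1g, a related adaptor, had 118 CPM in TIL cells against 881 CPM in IEL cells. Plcg2, a phospholipase downstream of such adaptors, had 4.42 CPM in TIL cells against 41.8 CPM in IEL cells. Hcst, which encodes the adaptor DAP10, was within 2-fold, with 343 CPM in TIL cells against 504 CPM in IEL cells. Of the kinases that act on these adaptors, Syk had 0.197 CPM in TIL and was at 0 in IEL, whereas Zap70 had 212 CPM in TIL cells against 227 CPM in IEL cells.

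By Cd8a within TIL, 3 of the 18 genes were apart on the higher side, where 6.4% of all genes were, and 0 on the lower, where 6.75% were. The median log2 ratio was 0.09 beside 0.01 over all genes. The 3 genes apart were Tyrobp, at 514 CPM in Cd8a-positive TIL cells and 9.90 CPM in TIL cells with 0, Fcer1g, with a log2 ratio of 4.84, and Plcg2, with 3.90. Dok2 was at 52.0 CPM in Cd8a-positive TIL cells and 74.0 CPM in TIL cells with 0, and Dok1 had a log2 ratio of 0.67. By Cd8a within IEL none of the 18 was apart, beside 0.623% of all genes on the higher and 0.674% on the lower side. Tyrobp was at 461 CPM in Cd8a-positive IEL cells and 316 CPM in IEL cells with 0. Between the libraries' Cd8a-positive cells, Tyrobp had 514 CPM in TIL against 461 CPM in IEL. Dok1 was the 1 gene of the 18 apart, on the lower side, where 4.79% of all genes were. It had 33.4 CPM in TIL against 88.9 CPM in IEL. The ligand gene Cd200 was scarce, with 0.938 CPM in TIL against 10.8 CPM in IEL T-like cells, and among Cd8a-positive cells 6.36 CPM in TIL against 11.3 CPM in IEL.

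Likeness between genes was measured as Pearson's r of log2(CPM + 1) over 18 sums, 1 for each cluster and library with at least 100 cells, among 7966 genes, and is a description, since the sums share their libraries. The sums were not limited to T-like cells. They took in the 265 macrophage- or monocyte-like cells and the 321 cells of cluster 12 in TIL, so the r values are not those of T-like cells alone. Cd200r2 and Cd200r4 had an r of 0.964 with each other, and Cd200r1 had 0.906 with Cd200r2 and 0.848 with Cd200r4. The 5 genes most like Cd200r1 were Nedd9 (0.981), Trerf1, Zbtb38, Tnfsf10 and Zmat4, those most like Cd200r2 were Heyl (0.983), Ptpn5, Sept4, Tmtc4 and Klre1, and those most like Cd200r4 were Dapk2 (0.988), Cd8a (0.983), Klre1, Prag1 and Ddc. Klre1, a killer cell lectin-like receptor, was on the lists of both Cd200r2 and Cd200r4, and none of the 5 genes nearest to Cd200r1 was on either. Cd8a had an r of 0.983 with Cd200r4, 0.938 with Cd200r2 and 0.799 with Cd200r1, while Tyrobp had 0.824 with Cd200r4, 0.737 with Cd200r2 and 0.620 with Cd200r1.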

How the data were processed

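Single-cell 3′ v3 libraries (10x Genomics), 1 from colon tumor and 1 from normal colon, were analysed. Per the submitters' processing notes and the file headers the matrices were made with Cell Ranger 6.1.1 on the mm10 build. The deposited values are whole-number UMI counts per gene and barcode, with no normalization by the authors, per the file headers. TIL held 13245 barcodes with 94953893 UMIs and IEL 9398 barcodes with 69414155 UMIs. The cell-calling method is not given in the sources used here.

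Cells with at least 500 genes, 1000 UMIs and at most 10% mitochondrial UMIs were kept (12407 TIL, 93.7%, and 9128 IEL, 97.1%). Both libraries were clustered together with Scanpy 1.11.5 and igraph 0.11.9 (2000 variable genes, 30 components, 15 neighbours, Leiden resolution 1.0, 20 clusters), without the members, Cd200, Cd8a, Cd8b1, T cell receptor segments, mitochondrial, immunoglobulin, haemoglobin and sex-linked genes. Clusters with at least 3 markers of another cell type at 50 CPM and 4-fold over the rest were left out (macrophage- or monocyte-like, 265 TIL and 1 IEL cells; epithelial-like, 30 TIL and 28 IEL cells). So was cluster 12 (321 TIL, 19 IEL cells), whose median doublet score was above 0.2. Scrublet called 0 TIL and 2 IEL doublets, which was taken as not working, and no cell was removed on its calls. Clusters were called IL-17-like, recirculating-like or cycling-like by the largest share of fixed markers at 50 CPM, a rule taken up after seeing the data. Cluster 4, led by Tnfrsf4 and Foxp3, stayed unnamed, and cytotoxic-like clusters are given by number. The largest share of cluster 4 was IL-17-like (0.8), but it was set aside for having Foxp3 among its 10 leading genes. Cluster 14 was IL-17-like by a narrow margin, with a share of 0.7 beside 0.67 for cytotoxic-like markers.

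UMIs were summed over cells and scaled to CPM. Levels have exact Poisson, shares Clopper-Pearson and ratios exact conditional 95% intervals. These assume independent UMIs and cells, so they hold counting error and no other. No p-value was computed. The ratio step was tested on simulated counts, and the thinning step on IEL cells of these data. The members and lists were chosen with earlier results of these data known. Named genes were the members, Cd8a, Cd8b1, pathway genes counted as apart with Cd200, Dok1, Dok2, Tyrobp and Hcst, and the 5 genes most like each member. Other pathway genes, Hspa1a, Fos, Trdc, Trac and leading genes of clusters were named after their values were seen. Some genes of the signalling list and some leading genes of clusters are counted but not reported by name here. Promoter sequences are from RefSeq (GRCm38.p6), and gene positions from GENCODE M21 on GRCm38, the assembly that mm10 names.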

Additional observations from a re-analysis of the deposited data

How the results depend on the processing

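No paired analysis was possible because each group has 1 library and the labels give no shared replicate numbers. Under the alternatives to the cell filter, cell choice, scaling and thinning, the TIL over IEL log2 ratio stayed between -2.89 and -2.74 for Cd200r1, -4.86 and -4.30 for Cd200r2, -4.77 and -2.96 for Cd200r3, and -3.83 and -3.42 for Cd200r4. Splitting TIL cells on Cd8b1 in place of Cd8a gave log2 ratios of -2.00 (-5.05 to -0.14) for Cd200r2, the other direction, and of -1.11 (-2.74 to 0.11) for Cd200r1 and -0.14 (-1.10 to 0.67) for Cd200r4, whose intervals include no difference, and left 0 members apart on the higher side instead of 3. In IEL the same split gave 0.11 for Cd200r1, -0.46 for Cd200r2 and -0.37 for Cd200r4, all under 2-fold. At Leiden resolution 0.5, 1 TIL cluster reached 20 CPM of Cd200r2 instead of 3 (cluster 12 left out), with a highest level of 98.7 instead of 303 CPM. With cells thinned to 1000 UMIs, Cd200r4 was found in 23.1% of TIL and 21.2% of IEL cells with Cd200r2, instead of 35.4% in TIL and 36.3% in IEL, since fewer UMIs remain. Keeping the cluster of high doublet scores and leaving out the heat shock cluster were chosen after seeing the data and changed no direction. Depth limits Cd200r3 most, with 13 UMIs over all TIL T-like cells.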
